A study of Drosophila melanogaster with 6 samples.

Results

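nAChRalpha6 and lncRNA:CR44701 are neighbouring genes on chromosome arm 2L of Drosophila melanogaster, and they were chosen by their edgeR log2 fold changes, which had opposite signs between lola-O mutant and control embryos. They are 2 of the 17559 genes in the count files, and both were found by their FlyBase identifiers, FBgn0032151 and FBgn0265912. Because that contrast chose them, their own values are given as a description without a test. The mutant samples had the genotype lola-O / Df(2R)ED2076, that is, a second chromosome with a mutation of isoform O of lola, opposite the deficiency. The control samples had the genotype Wild type / Df(2R)ED2076, so both groups carried 1 copy of the deficiency. Each of the 3 samples per group was a pool of 100 whole embryos aged 20 to 22 hours after egg laying, and polyA RNA was sequenced. The gene lola gives rise to many transcription factor isoforms that share a BTB domain and mostly differ in their zinc fingers.

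Nicotinic acetylcholine receptors are cation channels made of 5 subunits around a pore, and acetylcholine opens them. In insects acetylcholine is the main fast excitatory transmitter of the central nervous system. The alpha6 subunit encoded by nAChRalpha6 is the target of the spinosyn insecticides, and its transcripts are known for alternative exons and for adenosine-to-inosine editing by the enzyme Adar. lncRNA:CR44701 is annotated as a long noncoding RNA gene, a class of genes whose transcripts are not known to encode protein.

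The total count was 16217213 to 20518120 per mutant library and 17480430 to 22759638 per control library. Levels are given as CPM, counts per 1000000 counts of a library after TMM scaling. Where a library has 0 counts of a gene, up to 3 counts remain possible, equal to 0.132 to 0.185 counts per 1000000 before TMM scaling. Of 10312 genes that passed the low-count filter, 39.7% differed between the groups by edgeR at an adjusted p below 0.05, 20.2% higher and 19.5% lower in the mutants. Counts were per gene and not per isoform, so they do not measure isoform O or check the genotype. FBgn0005630, an earlier FlyBase identifier of lola, had 338 to 364 CPM in the mutants and 402 to 424 CPM in the controls. The titles and genotypes set the groups, since the protocol text speaks of mutant embryos for all 6 samples. The labels do not tell whether a group's pools were collected independently, so p-values cover only the spread among these libraries, which may be technical. The lola locus and the deficiency lie on 2R, the other arm of the same chromosome. The mutant and control second chromosomes may differ in sequence on 2L as well, and such a difference and the lola-O mutation cannot be told apart here.

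In BDGP6.54, nAChRalpha6 lies on 2L from 9793317 to 9886250 on the minus strand, a span of 92.9 kb with 7 annotated transcripts. lncRNA:CR44701 lies on 2L from 9887039 to 9887389 on the plus strand, with 1 transcript of 2 exons and 294 bases. The genes are arranged head to head: they are transcribed away from each other, with 788 bases between their starts. No other gene overlaps lncRNA:CR44701 or the exons of nAChRalpha6. Fkbp59, which encodes an FK506-binding prolyl isomerase, begins 615 bases past the end of lncRNA:CR44701 on the same strand. A further noncoding gene, lncRNA:CR43766, lies within a 43.8 kb intron of nAChRalpha6 on the opposite strand, at 9848200 to 9849069.

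nAChRalpha6 was higher in the mutants by 1.63-fold. Its raw counts were 2584, 2163 and 2403 in mutants 1, 2 and 3, against 1632, 1787 and 1462 in controls 1, 2 and 3. In CPM these are 131.5, 135.5 and 118.7 in the mutants and 75.5, 78.8 and 82.0 in the controls. The lowest mutant lay above the highest control, and mutant 3 stood below the other mutants. The mutants averaged 128.6 ± 8.75 CPM and the controls 78.8 ± 3.26 CPM (SD, n = 3 each), and the log2 fold change was 0.71 with an SE of 0.040. Of all tested genes, 195 (1.89%) had a log2 fold change at least as high. Groups that do not overlap were found for 47.8% of all tested genes.

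lncRNA:CR44701 was close to absent in the mutants and moderately expressed in the controls. Its raw counts were 3, 3 and 1 in mutants 1, 2 and 3, against 113, 106 and 99 in controls 1, 2 and 3. The mutant libraries thus sat at or under the floor of 3 counts. The mutants averaged 0.130 ± 0.0720 CPM and the controls 5.15 ± 0.446 CPM (SD, n = 3 each). Scaled to library size, the summed 7 counts of the mutants were 0.0245 times the 318 counts of the controls, with a 95% exact interval of 0.00976 to 0.0510. That is 40.9-fold lower in the mutants, with an interval of 19.6 to 102, for counting error only. Among all tested genes, 3 had a log2 fold change as low as its -5.29 (SE 0.32), itself included. The log2 value rests on 7 counts: without mutant 3 it was -4.87, and without mutant 2 it was -5.59.

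**Figure D1:**
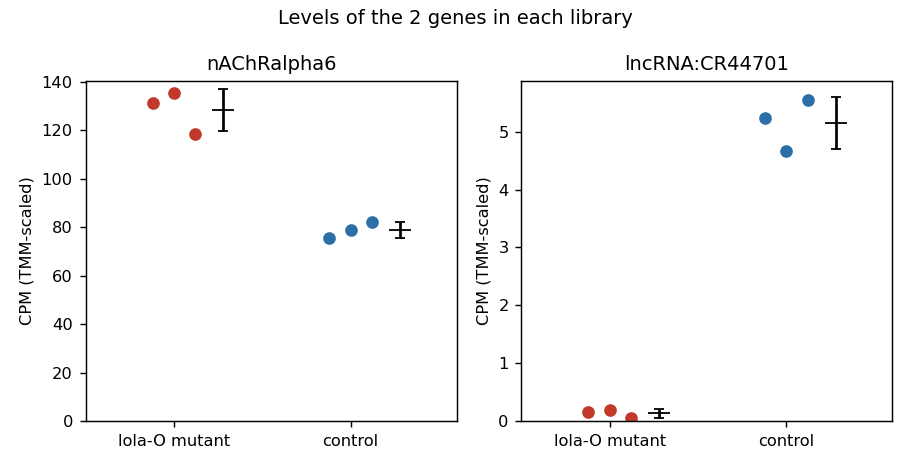
TMM-scaled CPM (vertical axis) of nAChRalpha6 (left) and lncRNA:CR44701 (right) in the 3 lola-O mutant and 3 control libraries. Each coloured point is a library, and the black mark is the mean ± SD. The mutants lie at 118.7 to 135.5 CPM above the controls for nAChRalpha6, and at most at 0.188 CPM for lncRNA:CR44701, below controls of 4.67 to 5.56 CPM.

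The ratio of the pair within a library separated the groups widely. The pair was chosen for opposite changes, so a separation was set in advance, and the values only describe its size. For every 1000 counts of nAChRalpha6 there were 1.16, 1.39 and 0.416 counts of lncRNA:CR44701 in mutants 1, 2 and 3, against 69.2, 59.3 and 67.7 in controls 1, 2 and 3. This ratio does not depend on the scaling between libraries. Per length of the longest transcript, lncRNA:CR44701 had 0.442 ± 0.245 CPM per kb in the mutants and 17.5 ± 1.52 CPM per kb in the controls (SD, n = 3 each). nAChRalpha6 had 16.95 ± 1.15 CPM per kb in the mutants and 10.4 ± 0.430 CPM per kb in the controls (SD, n = 3 each). The noncoding gene thus had the lower level per length of the pair in the mutants and the higher one in the controls. The level per length of a transcript of 294 bases is less certain than that of a long one.

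The other tested lncRNA genes differed less between the groups than lncRNA:CR44701 did. Besides lncRNA:CR44701, 150 genes with a lncRNA symbol passed the filter, of which 6 rose and 25 fell by edgeR, or 20.7% against 39.7% of all tested genes. Of the 150, 9 passed and changed by at least 2-fold, a larger share than the 167 of all 10312 tested genes. The share that passes also depends on the counts of the genes, which were not matched here. The median log2 fold change of the 150 was -0.084, against 0.0010 over all tested genes. The lowest value among them was -1.81, for lncRNA:CR44603, which lies well short of that of lncRNA:CR44701. In the controls 25 of the 150 had a higher mean CPM than lncRNA:CR44701, and in the mutants all 150 did. The place in the mutants is a description only: lncRNA:CR44701 was chosen for its fall, and it passed the filter by its control counts alone. The filter asks for enough counts in 3 libraries, so genes near 0 in both groups are not among the 150. Genes near 0 in the mutants and low in the controls, such as lncRNA:CR43766, are not among them either.

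lncRNA:CR43766, the gene inside the nAChRalpha6 intron, had counts in the control libraries only. It had 0, 0 and 0 counts in mutants 1, 2 and 3, against 10, 14 and 13 counts in controls 1, 2 and 3. It fell below the low-count filter and was picked for mention after its values were seen. The fold and p-value given next come from those same values and are a description only. A floor of 3 counts over the mutant group puts it at least 11.1-fold lower in the mutants. In the edgeR fit without the filter, in which 28.5% of 14258 genes passed, its adjusted p was 2.24e-07. Of the 20 neighbours with a row that fell below the filter, it was the only one that passed there.

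Around the pair, 65 other genes are annotated within 100 kb. The files held 59 of them and 39 were tested. Of these, 6 rose, 8 fell and 25 did not pass by edgeR, so 35.9% were called, against 39.7% of all tested genes. Their median log2 fold change was 0.058, against 0.0010 over all tested genes. Of the 39, 2 passed and changed by at least 2-fold, against 167 of all 10312 tested genes. None of the 39 came near the change of lncRNA:CR44701, but lncRNA:CR43766, which fell below the filter, is not among them. In the fit without the filter lncRNA:CR43766 had a log2 fold change of -6.57, a value that rests on 0 mutant counts. With a correction that takes out the trend of the fold changes along transcript length, 6 rose and 6 fell.

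Fkbp59, the nearest gene on the far side of lncRNA:CR44701, rose in the mutants. It had 119, 117 and 120.0 CPM in mutants 1, 2 and 3, against 100.0, 97.6 and 91.2 CPM in controls 1, 2 and 3. The groups did not overlap, and the log2 fold change was 0.30 (SE 0.037, edgeR adjusted p = 2.80e-10). Its last bases overlap CG34183 on the opposite strand, and the strand setting of the counting is not given in the sources used here. On the near side, CG13123 and CG4036, the genes next to the 3′ end of nAChRalpha6, showed log2 differences of 0.062 (SE 0.23) and 0.19 (SE 0.11), and neither passed (edgeR adjusted p = 0.858 and 0.141).

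The neighbours that passed edgeR with the 3 largest log2 differences, CG4594, lncRNA:CR45949 and CG5853, lay on the lncRNA:CR44701 side. CG4594 had 2.09, 1.63 and 1.58 CPM in mutants 1, 2 and 3, against 4.81, 4.10 and 5.16 CPM in controls 1, 2 and 3, and its log2 fold change was -1.39 (SE 0.18, edgeR adjusted p = 2.24e-09). It stands in a row with CG4598 and CG4592, which showed log2 differences of -0.012 (SE 0.058) and -0.016 (SE 0.069), and neither passed (edgeR adjusted p = 0.896 and 0.883). lncRNA:CR45949 had 4, 3 and 8 counts in mutants 1, 2 and 3, against 21, 13 and 12 counts in controls 1, 2 and 3. Its log2 fold change was -1.44 (SE 0.45, edgeR adjusted p = 0.00772), but it did not pass DESeq2 (adjusted p = 0.0642) or edgeR without control 1 (adjusted p = 0.0809). CG5853, an ABC transporter gene of the G subfamily, rose by 0.35 on the log2 scale, with 154 to 159 CPM in the mutants and 119 to 125 CPM in the controls (edgeR adjusted p = 9.13e-14). Exons of CG5853 and lncRNA:CR45949, and of CG17633, Arglu1 and CG4658 given next, overlap other annotated genes.

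The other neighbours that passed changed by less. CG13126 rose by 0.30, CG5885 by 0.22, CG17633 by 0.12 and the ribosomal protein gene RpL13 by 0.12 on the log2 scale. CG13124 had -0.27, CG4658 -0.24, the sodium/calcium exchanger gene Nckx30C -0.22, Arglu1 -0.18, CG4364 -0.16 and Pka-C1, the catalytic subunit gene of protein kinase A, -0.095. All 10 passed edgeR with an adjusted p of 0.00559 or less, but Pka-C1 did not pass without mutant 3 (adjusted p = 0.0815). With the transcript-length correction Nckx30C, RpL13 and Pka-C1 no longer passed (edgeR adjusted p = 0.305, 0.0506 and 0.974), and Pka-C1 turned to 0.0017.

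**Figure D2:**
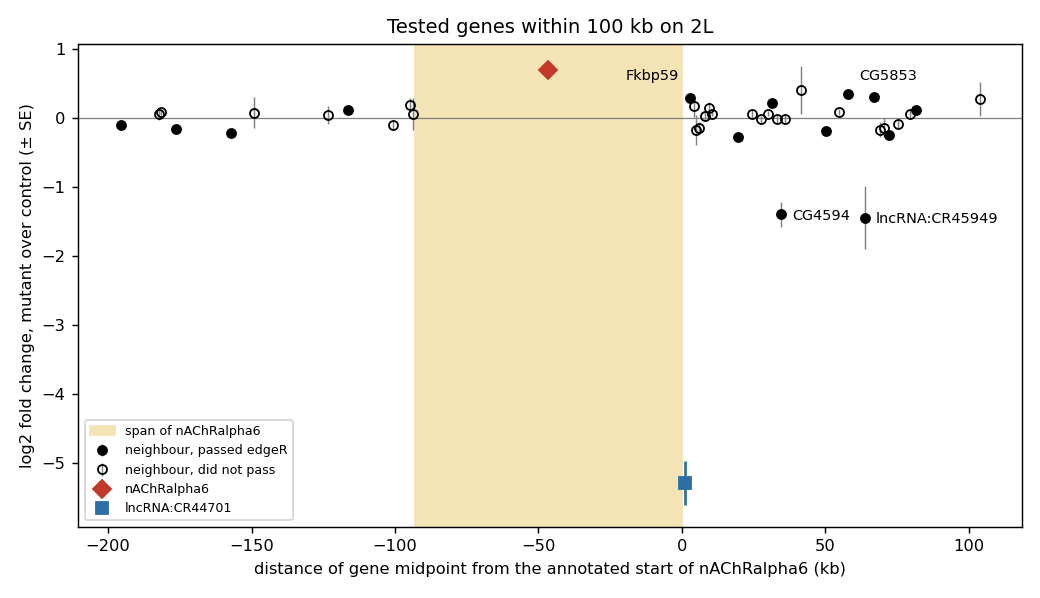
Log2 fold change, mutant over control, with its SE (vertical axis) of the tested genes within 100 kb, by the distance of the gene's midpoint from the annotated start of nAChRalpha6 in kb (horizontal axis). Filled circles are neighbours that passed edgeR, open circles those that did not, and the shaded band is the span of nAChRalpha6. lncRNA:CR44701 at -5.29 lies far below all tested neighbours, of which CG4594 and lncRNA:CR45949 are lowest at -1.39 and -1.44. nAChRalpha6 at 0.71 lies above the tested neighbours. lncRNA:CR43766, which fell below the filter, is not shown.

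The files held all 9 other nicotinic subunit genes, and all were tested. None of the 9 rose, 5 fell and 4 did not pass, so 55.6% were called, against 39.7% of all tested genes, and their median log2 fold change was -0.14. With the transcript-length correction 1 of the 9 fell and none rose, with a median of -0.025, so 4 of the 5 falls did not pass with it. nAChRalpha6 itself had a log2 fold change of 0.85 with that correction.

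nAChRalpha5, whose product is closest to alpha6 and alpha7 in the fly family, had 137, 143 and 134 CPM in mutants 1, 2 and 3, against 158, 157 and 158 CPM in controls 1, 2 and 3, and its log2 fold change was -0.20 (SE 0.033, edgeR adjusted p = 1.37e-06). nAChRalpha7 had 62.0, 66.7 and 63.8 CPM in mutants 1, 2 and 3, against 70.0, 68.7 and 72.7 CPM in controls 1, 2 and 3, which is -0.14 on the log2 scale (edgeR adjusted p = 0.00726). Without mutant 1 it did not pass (edgeR adjusted p = 0.0637). For both genes the mutants lay below the controls without overlap, the reverse of nAChRalpha6, while 47.8% of all tested genes had groups that do not overlap. With the transcript-length correction neither passed, at -0.025 and -0.031 (edgeR adjusted p = 0.596 and 0.615).

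nAChRalpha4 fell by 0.28 (SE 0.044, edgeR adjusted p = 3.20e-07), and it is the subunit gene that still passed with the transcript-length correction, at -0.17 (edgeR adjusted p = 9.03e-04). nAChRalpha3 had -0.20 and nAChRalpha1 -0.15 (edgeR adjusted p = 0.00304 and 6.65e-04). With the correction nAChRalpha1 turned to 0.045 and nAChRalpha3, nAChRalpha5 and nAChRalpha7 shrank to between -0.031 and -0.014, and none of these passed edgeR (adjusted p of 0.342 or more). nAChRalpha2 had 0.025 (SE 0.066), nAChRbeta1 -0.063 (SE 0.041), nAChRbeta2 -0.068 (SE 0.063) and nAChRbeta3 -0.14 (SE 0.12), and none of these passed. Exons of nAChRalpha3, nAChRalpha4 and nAChRbeta3 overlap other annotated genes, which leaves their counts uncertain.

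Per length of the longest transcript, nAChRalpha6 stood second among the subunit genes in the mutants and sixth in the controls. In the mutants nAChRbeta1 led with 30.95 to 33.5 CPM per kb, followed by nAChRalpha6 with 15.7 to 17.9 and nAChRalpha5 with 14.7 to 15.6 CPM per kb. The lowest mutant of nAChRalpha6 lay just above the highest mutant of nAChRalpha5. In the controls nAChRbeta1 led with 32.0 to 34.7 CPM per kb, and nAChRalpha5, nAChRalpha7, nAChRalpha1 and nAChRalpha4 came before nAChRalpha6, whose range was 9.96 to 10.8 CPM per kb. The ranges of nAChRalpha1 and nAChRalpha4 overlapped in the controls, at 11.3 to 11.5 and 11.1 to 11.7 CPM per kb. nAChRalpha2 came next below, at 9.31 to 9.52 CPM per kb. nAChRbeta2, nAChRbeta3 and nAChRalpha3 were the lowest in both groups.

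nAChRalpha6 made up 15.0%, 14.6% and 13.4% of the summed CPM per kb of the 10 subunit genes in mutants 1, 2 and 3, against 8.35%, 8.58% and 8.90% in controls 1, 2 and 3. The sum over the 9 other genes was 101 ± 3.13 CPM per kb in the mutants and 110.2 ± 0.804 CPM per kb in the controls (SD, n = 3 each). The larger share of nAChRalpha6 thus went with more of its own transcript and with a slightly lower sum of the others. These levels are without the transcript-length correction, with which only 1 of the 9 others fell and their median log2 fold change was -0.025. In pooled whole embryos, fewer cells of a type and less RNA per cell cannot be told apart.

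**Figure D3:**
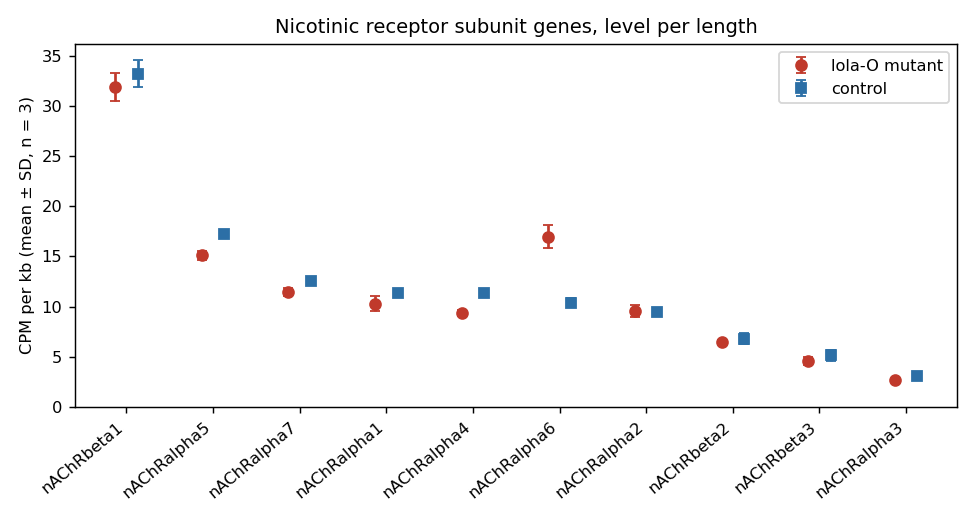
Level per length, in TMM-scaled CPM per kb of the longest transcript (vertical axis), of the 10 nicotinic subunit genes, ordered by their control mean. Red circles are lola-O mutants and blue squares controls, each as mean ± SD over 3 libraries. nAChRalpha6 has 16.95 CPM per kb in the mutants and 10.4 in the controls, while the other genes lie at or below their control level apart from nAChRalpha2, at 9.56 and 9.42.

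Of 4 genes that act on nicotinic receptors, all tested, none rose and 2 fell, beside 39.7% called among all tested genes. RIC-3, which encodes a chaperone of receptor assembly, fell by 0.27 on the log2 scale, and averaged 68.4 ± 2.99 CPM in mutants and 82.8 ± 2.85 CPM in controls (SD, n = 3 each; edgeR adjusted p = 8.80e-08). qvr, whose product is a membrane-anchored Ly6 protein that dampens receptor activity, fell by 0.20 (edgeR adjusted p = 1.79e-05). Both still passed with the transcript-length correction, at -0.27 and -0.11 (edgeR adjusted p = 2.67e-08 and 0.0186). Adar, the editing enzyme, had -0.061 (SE 0.041) and Tmx3, which encodes a thioredoxin-related membrane protein, -0.029 (SE 0.066), and neither passed (edgeR adjusted p = 0.248 and 0.769). Exons of Adar and Tmx3 overlap other annotated genes, which leaves their counts uncertain.

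Of 7 listed genes for the handling and sensing of acetylcholine, 6 were in the files and 5 were tested, of which none rose and 2 fell. The share called among these 5 is close to the 39.7% of all tested genes. Ace, which encodes acetylcholinesterase, fell by 0.22, and averaged 179 ± 1.30 CPM in mutants and 208 ± 5.29 CPM in controls (SD, n = 3 each; edgeR adjusted p = 2.38e-08). The muscarinic receptor gene mAChR-A had -0.15 (edgeR adjusted p = 0.0164) and did not pass without mutant 2, mutant 3 or control 3 (edgeR adjusted p = 0.0668, 0.142 and 0.186). The choline acetyltransferase gene ChAT had -0.083 (SE 0.045), the choline transporter gene ChT -0.019 (SE 0.037) and mAChR-B -0.065 (SE 0.081), and none of these passed. With the transcript-length correction neither Ace nor mAChR-A passed (edgeR adjusted p = 0.0789 and 0.470). Exons of ChAT, ChT and mAChR-A overlap other annotated genes, which leaves their counts uncertain.

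**Figure D4:**
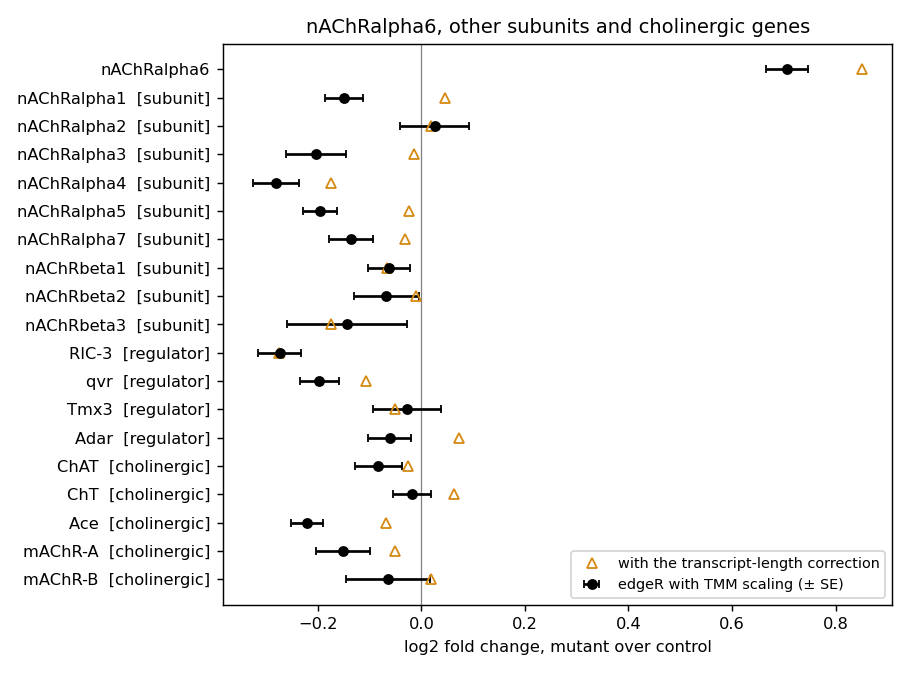
Log2 fold change, mutant over control (horizontal axis), of nAChRalpha6, the 9 other nicotinic subunit genes, the receptor regulators and the cholinergic genes that were tested. Black points with SE are from edgeR with TMM scaling, and open triangles from the same fit with the transcript-length correction. nAChRalpha6 lies at 0.71, or 0.85 with the correction, while the other genes lie between -0.28 and 0.025, or -0.27 and 0.073 with it.

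Markers of neurons, the cells that express nicotinic receptors, were not higher in the mutants by edgeR. Of 10 listed neuron markers 9 were tested, of which 6 fell and none rose, against 19.5% lower and 20.2% higher among all tested genes, and their summed level was 2011 to 2117 CPM in the mutants and 2179 to 2224 CPM in the controls. elav, the pan-neuronal RNA-binding protein gene, averaged 181 ± 9.21 CPM in mutants and 203 ± 7.58 CPM in controls (SD, n = 3 each; log2 fold change -0.17, edgeR adjusted p = 2.83e-05). Under the correction for length Syt1 and fne rose, which had not passed before, and Syx1A was the only one of the 6 that still fell. The median of the 9 was then 0.0088. Exons of elav, Syx1A and some other listed markers overlap other annotated genes, which leaves their counts uncertain. Of the glia markers 2 of 6 rose and 1 fell, of muscle 5 of 6 fell, of hemocytes 4 of 5 fell and of germ cells none of 2 passed, beside 39.7% of all tested genes called. The summed level of muscle markers was 22330 to 22720 CPM in the mutants and 25820 to 26270 CPM in the controls, and that of hemocyte markers was 971 to 978 CPM in the mutants and 1113 to 1137 CPM in the controls. Glia markers summed to 730.3 to 743 CPM in the mutants and 738 to 753 CPM in the controls, and these ranges overlapped. Under the correction for length 1 muscle marker rose and 4 fell, and 1 hemocyte marker fell. Of the 4 fat body markers 1, apolpp, was tested and fell, or rose under the correction for length, and the larval serum genes Lsp1alpha and Lsp2 and Fbp1 were close to 0 in both groups. The part of these shifts in the level of nAChRalpha6 was not tested.

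The pair was then set beside other head-to-head pairs, a comparison added after the values of the pair were known. Apart from lncRNA:CR44701 and nAChRalpha6, 46 pairs of a lncRNA gene and a coding gene with at most 2000 bases between them had both genes tested. The lncRNA gene passed edgeR in 10 of these pairs and the coding gene in 23, beside 39.7% of all tested genes. In 6 pairs both genes passed, with 4 pairs moving in the same direction and 2 in opposite ones. In both opposite pairs the lncRNA gene fell and the coding gene rose, as in the pair described here. All 10 lncRNA genes that passed fell, so an opposite pair could take no other form. The opposite pairs were lncRNA:CR42549 with RnpS1 on 3R, at -0.20 and 0.17 on the log2 scale, and lncRNA:CR45949 with CG5853, at -1.44 and 0.35. The last of these lies within 100 kb of nAChRalpha6 and carries the limits on lncRNA:CR45949 given above. In the 4 other pairs both genes fell: lncRNA:CR42862 with pyx, lncRNA:CR43301 with drn, lncRNA:CR44831 with eag and lncRNA:CR45471 with Nipped-B.

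**Figure D5:**
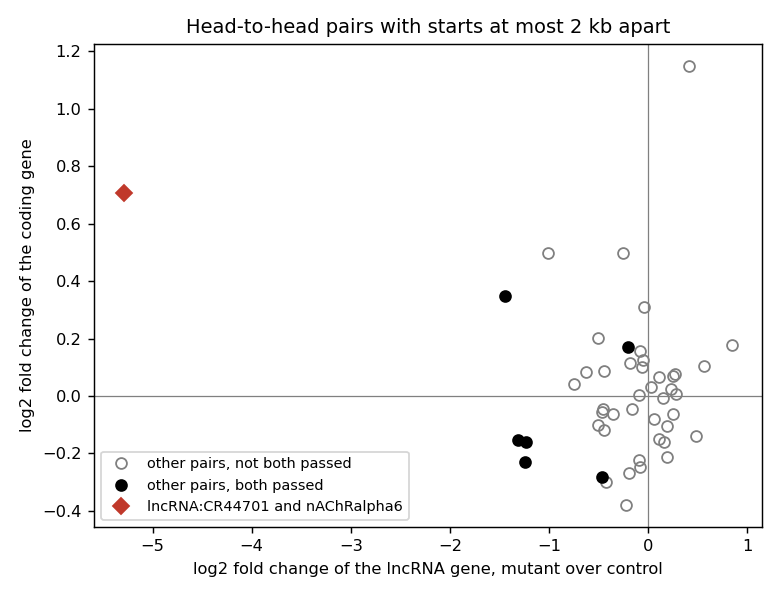
Log2 fold change, mutant over control, of the coding gene (vertical axis) against that of the lncRNA gene (horizontal axis) in head-to-head pairs at most 2000 bases apart. The red diamond is nAChRalpha6 with lncRNA:CR44701 at 0.71 and -5.29, filled circles are the 6 other pairs in which both genes passed edgeR, and open circles the rest. No other pair reached a lncRNA change below -1.44.

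The 5 genes with a profile most like that of each gene were sought over the 6 libraries, by the root mean square difference of log2(CPM + 0.5) centred on each gene's mean, among 9690 other genes whose mean reached 1 CPM. With 2 groups of 3 libraries this likeness mainly measures the size of the group difference. Nearest to nAChRalpha6 were the glutathione S-transferase gene GstD6 at 0.0647, the lysosomal mannosidase gene LManVI at 0.0660, CG1979 at 0.0662, CG8785 at 0.0693 and CG15533 at 0.0706. None of these is a receptor subunit gene, and LManVI, with a log2 fold change of 0.67, is the only one of them on 2L. Nearest to lncRNA:CR44701 were CG14852 at 0.296, the endonuclease G inhibitor gene EndoGI at 0.316, the Bomanin gene BomS6 at 0.357, the chitinase gene Cht4 at 0.385 and CG13135 at 0.410. All 5 differences exceed those around nAChRalpha6. lncRNA:CR44701 was chosen for its fall, and its few mutant counts can widen such differences, so this is a description only.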

How the data were processed

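The authors deposited 1 table per library with the raw read count of each FlyBase gene, without normalization. STAR 2.5.2b, Subread 1.5.1, SAMtools 1.3.1, bedtools 2.25.0 and build BDGP6 were used, per the submitters' processing notes, with no role given. Not given in the sources used here are the strand setting, the annotation release and how multi-mapping reads were counted. Of 17559 identifiers, 17253 were found in BDGP6.54 as annotated in Ensembl release 115, which gave symbols, positions and lengths.

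The mutant libraries were compared with the controls with edgeR 4.0.16 in R 4.3.3 (TMM scaling, filterByExpr, robust quasi-likelihood fit, 2-sided test, Benjamini-Hochberg adjustment over 10312 genes, threshold 0.05), tested on simulated data. The SE is the log2 fold change over the square root of F. Replicates differed by more than sampling noise (chi-square per degree of freedom 1.94 to 6.14). Alternatives were RLE and upper-quartile scaling, other filters, DESeq2 1.42.0, a replicate block, each library left out, other windows, and loess offsets on transcript length per library.

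The members and lists were chosen with earlier results of these data known. Named are the pair, the neighbours within 100 kb, the subunit, regulator and cholinergic genes and the 5 most similar profiles. Intervals and floors cover counting error only.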

Additional observations from a re-analysis of the deposited data

How the results depend on the processing

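nAChRalpha6 stayed higher and lncRNA:CR44701 lower in the mutants under all 13 other fits run. For nAChRalpha6 the log2 fold change was 0.67 to 0.76 with a library left out and 0.85 with the transcript-length correction. For lncRNA:CR44701 it was -5.59 to -4.87 with a library left out, and the log2 ratio of the pair, mutant minus control, was -6.16 to -5.47. With the transcript-length correction the count of called genes was 1 among the other subunits, 0 among the cholinergic genes, 3 among the neuron markers and 1 among the hemocyte markers, and it turned nAChRalpha1 to 0.045 and Pka-C1 to 0.0017. Among the cholinergic genes the count was 1 with DESeq2 and 1 to 2 with a library left out. Windows of 50 and 250 kb held 7 and 26 changed neighbours. With a library left out, 3481 to 3872 genes passed over all tested genes. Over the 57 tested neighbours, other subunits, regulators and cholinergic genes, 715 of 739 comparisons kept the side of the threshold. Of the rest, 15 lost the call and 7 gained it. In the last 2, nAChRalpha1 and Pka-C1 with the transcript-length correction, the call was lost and the sign turned. In 26 of the 715 the sign changed for a gene that passed in neither fit. With at most 1000 bases between head-to-head genes, 1 pair in place of 2 had both genes called in opposite directions. The replicate numbers in the titles did not pair the samples: the deviations of same-numbered libraries correlated at 0.0225, -0.0276 and 0.0425. With a replicate block 4077 genes passed, nAChRalpha6 had 0.71 and lncRNA:CR44701 -5.30, and RpS2 then passed (edgeR adjusted p = 0.0492). Depth limits lncRNA:CR44701 and lncRNA:CR43766 in the mutants, where 0 to 3 counts per library give no precise level.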

Other observations

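A wider window of 250 kb on either side of the pair held 60 tested neighbours, of which 9 rose and 17 fell by edgeR, or 43.3% against 39.7% of all tested genes. Of the 60, 4 passed and changed by at least 2-fold, against 167 of all 10312 tested genes. All 4 were lower in the mutants: CG4594, lncRNA:CR45949, CG33301 and CG13135. CG33301 had 373, 316 and 340 counts in mutants 1, 2 and 3, against 940, 930 and 741 counts in controls 1, 2 and 3, and its log2 fold change was -1.19 (SE 0.062, edgeR adjusted p = 1.57e-26). CG13135 had 4, 0 and 4 counts in mutants 1, 2 and 3, against 58, 71 and 65 counts in controls 1, 2 and 3, and its log2 fold change was -4.39 (SE 0.37, edgeR adjusted p = 3.87e-16). CG13135 passed the filter by its control counts alone, and it begins 235 kb past the end of lncRNA:CR44701. It is also among the 5 genes with the profile most like that of lncRNA:CR44701, which mainly restates the size of its fall. lncRNA:CR44701, lncRNA:CR43766 and CG13135 were thus each at 0 to 4 counts in every mutant library and at 10 or more in every control library. These 3 genes were picked from the region after their values were seen, and whether the mutant and control chromosomes differ in sequence there was not examined. How many genes over the genome have such counts was not determined. A large fall was also found on another chromosome. CG14852 on 3R, whose exons overlap CG31313, had 11, 8 and 3 counts in mutants 1, 2 and 3, against 223, 225 and 222 in controls 1, 2 and 3.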
